A study of Homo sapiens with 17 samples.

Results

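The 57 genes described here are those of translation initiation factors (eIFs), translation elongation factors (eEFs) and a few proteins named after them, together with the antisense RNA gene EIF3J-AS1. They were chosen by symbol: each begins with EIF1 to EIF6 or with EEF1 or EEF2, and EEF1E1 was left out. They were 57 of the 14613 genes listed in at least 1 of 2 tables of normalised counts from PC3M cells, and each of them had a row in both tables. PC3M is a metastatic human prostate cancer cell line derived from PC-3.

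The 17 libraries came from 7 groups. In the proteasome experiment, siJMJD6 MG132 cells received siRNA against JMJD6 for 72 h and then the proteasome inhibitor MG132 at 2.5 µM for 4 h. HSF1 KO MG132 cells lack HSF1 and received the same MG132 treatment. The labels do not say whether these knockout cells were transfected or whether their libraries, lettered A and B, are separate clones. The siNT MG132 group and the solvent control siNT DMSO received the non-targeting siRNA siNT for 72 h, and each of these 4 groups had 2 libraries. In the heat shock experiment, with 3 libraries a group, siJMJD6 heat shock and siNT heat shock cells were held at 42 °C for 1 h and left to recover for 2 h, and siNT basal cells were not heated. All of these cells were transfected with their siRNA, against JMJD6 or siNT, for 72 h. Knockdown after heat shock, as worded below, means siJMJD6 against siNT cells that were both heated. JMJD6 is an oxygenase of the Jumonji domain family, and HSF1 is the transcription factor that drives heat shock genes. No unstressed JMJD6 knockdown or HSF1 knockout cells were analysed here, so an effect of knockdown that needs stress and one that does not cannot be told apart.

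Translation of most mRNAs starts when eIF4E binds the cap and, with the scaffold eIF4G and the helicase eIF4A, recruits a small ribosomal subunit that carries eIF3 and the eIF2 ternary complex with initiator tRNA. A pair of brakes acts on this pathway under stress. The 4E-BPs, which mTORC1 phosphorylation inactivates, hold eIF4E away from eIF4G, and kinases that phosphorylate eIF2 alpha block its recycling by eIF2B, while mRNAs such as ATF4 are then translated better. Elongation is carried out by eEF1A, which delivers aminoacyl-tRNA, and eEF2, which moves the ribosome and is inhibited by its kinase eEF2K.

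JMJD6 averaged 21.6 normalised counts in siJMJD6 MG132 cells and 148 in siNT MG132 cells, and 10.7 in siJMJD6 heat shock cells and 224 in siNT heat shock cells. HSF1 had 285 and 175 normalised counts in HSF1 KO MG132 cells and 1687 and 1884 in siNT MG132 cells, but tags from transcript ends do not check a deletion elsewhere in the gene. All 5 epithelial markers looked for were listed, with summed levels of 1479 to 2472 per library in the MG132 table and 2310 to 2881 in the heat shock table. Androgen receptor-positive prostate markers summed to at most 7.17 and 28.3, and the 4 mesenchymal markers, all listed, summed to 593 to 877 and 815 to 963. CD14, the 1 blood marker listed of 5, reached at most 8.54 and 3.11. Replicates of a group correlated with r = 0.919 to 0.953 in the MG132 table and 0.967 to 0.977 in the heat shock table. The median standard error of a log2 fold change was 0.39 and 0.19 in these tables. The labels do not state separate cultures, so p-values measure only the spread between these libraries.

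A gene was called where limma's Benjamini-Hochberg adjusted p, over all genes tested, was under 0.05. JMJD6 knockdown after heat shock gave the most calls, 31 of 57 members, with 9 higher and 22 lower in siJMJD6 heat shock than in siNT heat shock cells. This is 54.4% of the members, against 46.4% of all 9831 genes tested there, with 21.4% higher and 24.9% lower. Under MG132, JMJD6 knockdown gave 6 calls among 56 members tested, 1 higher and 5 lower, or 10.7% against 13.6% of 9778 genes, with 6.22% higher and 7.35% lower. Heat shock itself raised 3 of 57 members and lowered none, or 5.26% against 4.09% of all genes, with 2.86% higher and 1.23% lower. MG132 itself gave no call among 56 members, with 0.266% of all genes called, and 4 members had an unadjusted p under 0.05, 2 higher and 2 lower, against 5.66% of all genes. HSF1 KO MG132 cells against siNT MG132 cells also gave no call, with 1.28% of all genes called, and 4 members, all higher, had an unadjusted p under 0.05, against 12.8% of all genes. EIF5A2, 1 of these 4, was tested only because its knockout libraries passed the filter on low counts. HSF1 KO MG132 cells against siJMJD6 MG132 cells gave 8 calls of 56, 7 higher and 1 lower, or 14.3% against 20.8% of all genes, with 11.1% higher and 9.69% lower. The members' share of calls was above that of all genes in both heat shock comparisons and below it in the comparisons under MG132, and this was not tested. Groups that do not overlap are common in these tables: siJMJD6 and siNT libraries were fully separate for 53.1% of all genes under MG132 and 54% after heat shock. In bulk RNA, fewer cells with a transcript and less of it per cell cannot be told apart.

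**Figure D1:**
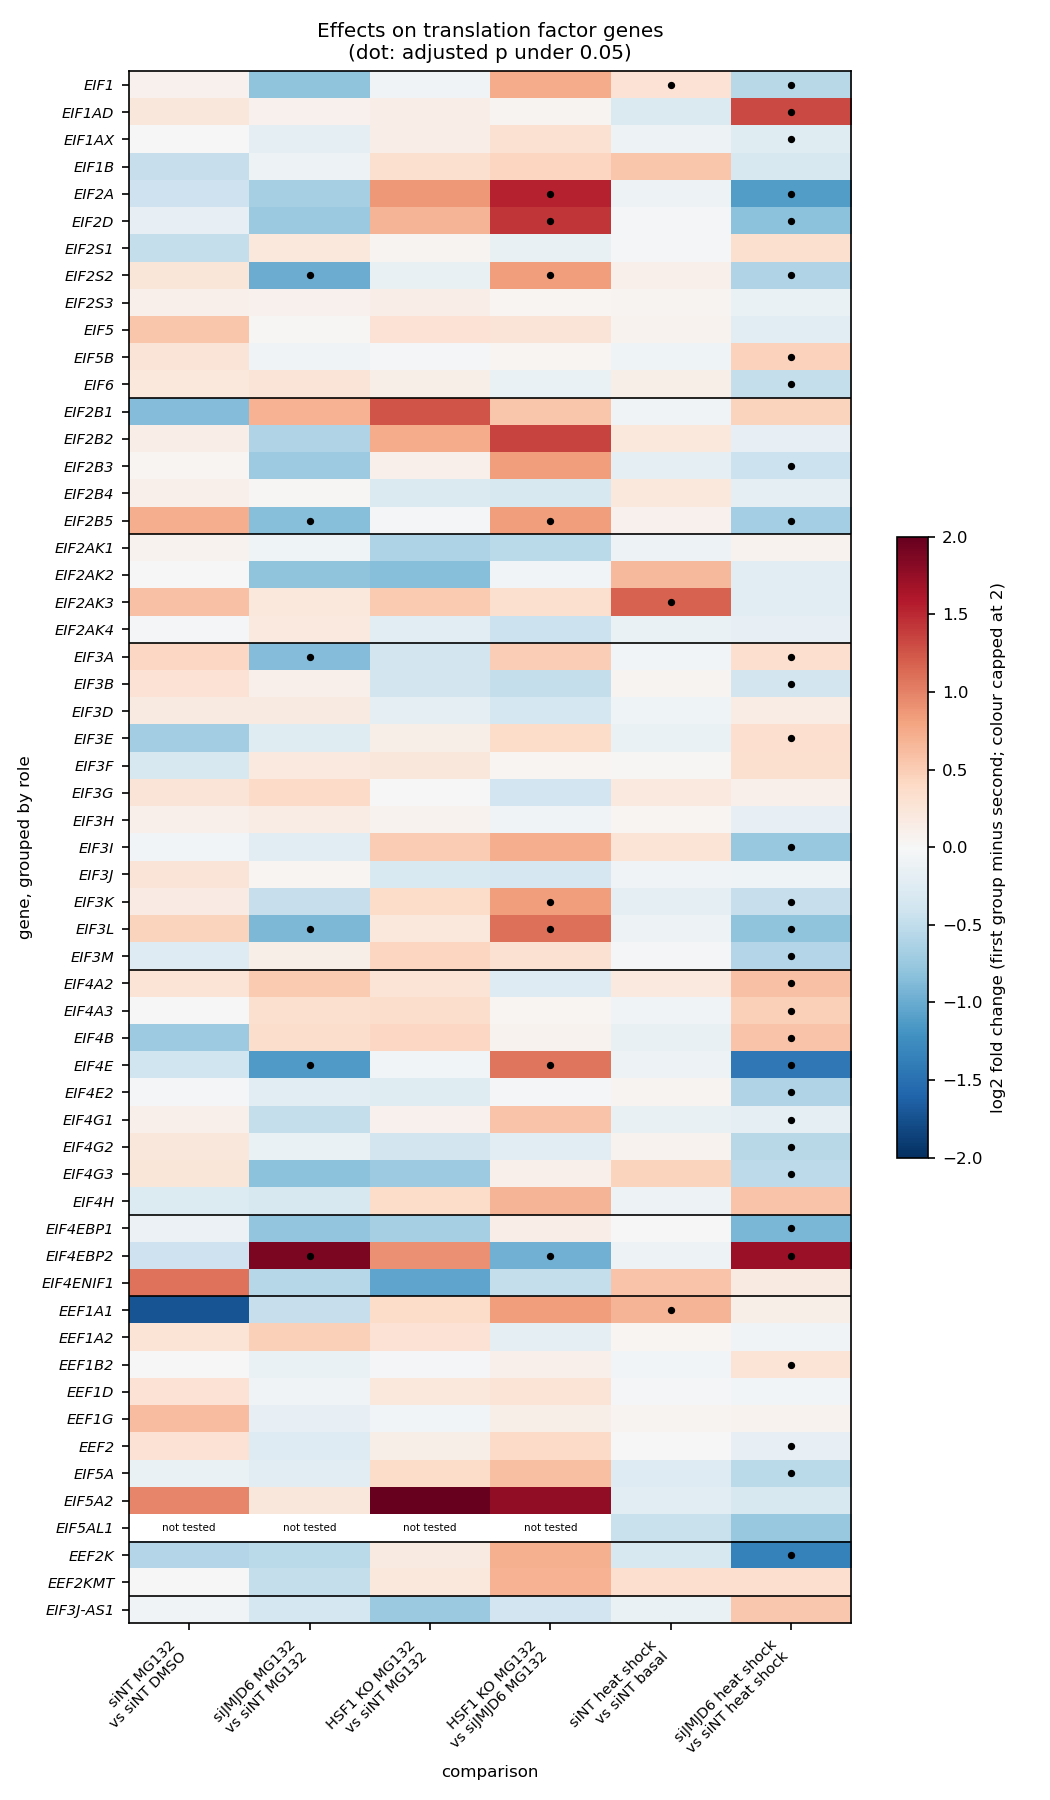
Each row is a member gene, grouped by role with lines between the groups, and each column is 1 of 6 comparisons. Colour gives the log2 fold change of the first group over the second, red for higher and blue for lower, capped at 2, and a dot marks an adjusted p under 0.05. The last column, siJMJD6 heat shock over siNT heat shock, holds 31 of the dots, and the 2 columns for MG132 over DMSO and HSF1 KO over siNT hold none.

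The median log2 fold change of the members in siJMJD6 heat shock over siNT heat shock was -0.17, against -0.03 for all genes. In siJMJD6 MG132 over siNT MG132 it was -0.15, against -0.05. The summed level of the members took 1.56%, 1.53% and 1.53% of the normalised counts in siJMJD6 heat shock libraries, against 1.65%, 1.67% and 1.67% in siNT heat shock libraries. These groups did not overlap, and the exact two-sided permutation p of 0.1 is the smallest that 3 against 3 libraries can give. Under MG132 the share was 1.45% and 1.44% in siJMJD6 libraries, against 1.57% and 1.77% in siNT libraries, where 2 against 2 cannot give an exact p under 0.333.

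Within the cap-binding step, the repressor EIF4EBP2 and its target EIF4E moved in opposite directions after JMJD6 knockdown, in both experiments. EIF4EBP2, which encodes 4E-BP2, had 482, 519 and 476 normalised counts in siJMJD6 heat shock libraries, against 145, 152 and 147 in siNT heat shock libraries. Under MG132 it had 316 and 258 in siJMJD6 libraries, against 80.4 and 73.7 in siNT libraries. Every knockdown library lay above every library of its control group in both tables. EIF4EBP2 rose 3.31-fold after heat shock (log2 1.73 ± 0.11 SE, limma adjusted p = 3.13e-15) and 3.68-fold under MG132 (log2 1.88 ± 0.27 SE, limma adjusted p = 0.00102). These were the smallest p-values among the members in each comparison.

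EIF4E, the cap-binding protein itself, had 43.5, 38.4 and 36.2 normalised counts in siJMJD6 heat shock libraries, against 104, 103 and 116 in siNT heat shock libraries. It had 37.3 and 22.2 in siJMJD6 MG132 libraries, against 57.7 and 71.9 in siNT MG132 libraries. The knockdown libraries were again apart from their controls, here on the low side. EIF4E fell 2.70-fold after heat shock (log2 -1.43 ± 0.16 SE, limma adjusted p = 2.18e-09) and 2.19-fold under MG132 (log2 -1.13 ± 0.34 SE, limma adjusted p = 0.043). The MG132 call of EIF4E was lost in 10 of 14 alternative settings, with adjusted p between 0.0597 and 0.175, and the heat shock call was lost in none. In GENCODE release 29 on GRCh38, EIF4EBP2 lies at chr10:70404379-70428618 on the plus strand and EIF4E at chr4:98871684-98930637 on the minus strand. EIF4EBP2 has 3 numbered pseudogenes there and EIF4E has 5, with which their reads could be shared. An exon of EIF4E also overlaps TBCAP3 on the same strand. Other called members have such pseudogenes too, among them EIF4B with 9, EEF1B2 with 8 and EIF1 with 7, while others have none.

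**Figure D2:**
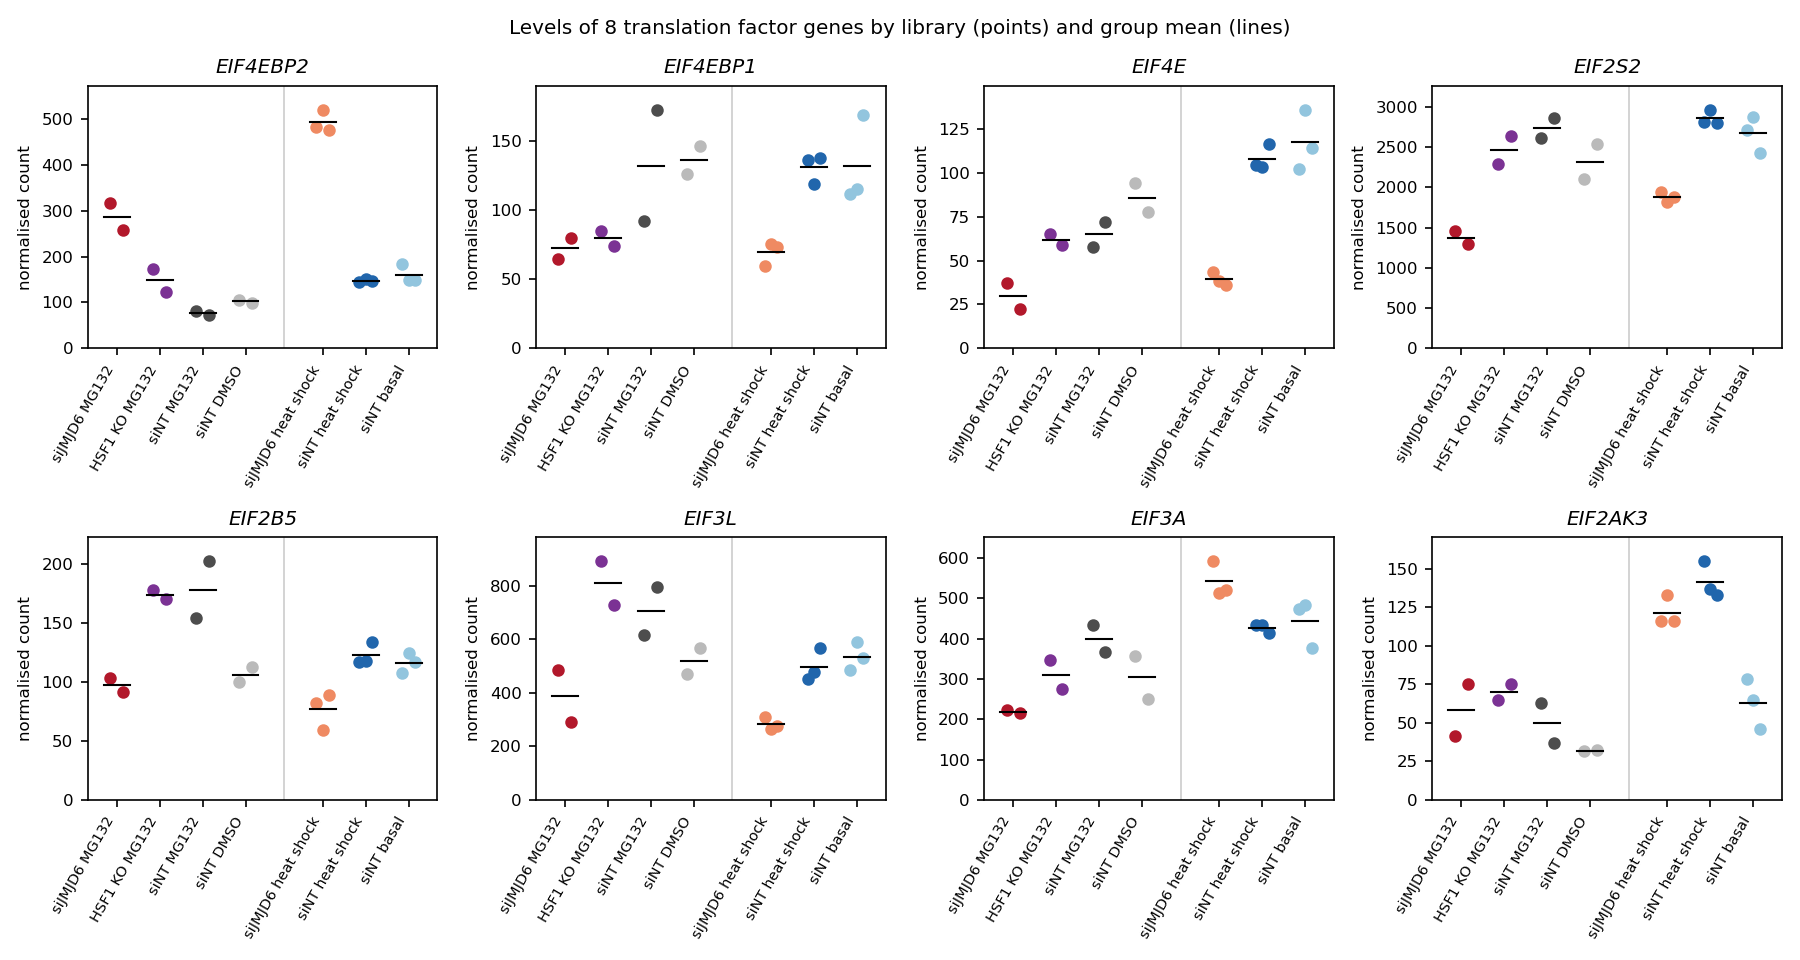
Normalised counts of 8 translation factor genes, with 1 point per library, a line at each group mean, and the 4 groups of the MG132 table left of the grey line. EIF4EBP2 is highest, and EIF4E and EIF2S2 lowest, in the JMJD6 knockdown groups of both tables, and EIF2AK3 is higher in both heat-shocked groups than in siNT basal cells.

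EIF4EBP1, the paralogous repressor 4E-BP1, did not follow EIF4EBP2. It had 59.3, 75.5 and 73.5 normalised counts in siJMJD6 heat shock libraries, against 136, 119 and 137 in siNT heat shock libraries. It fell by 0.91 ± 0.15 on the log2 scale (SE, limma adjusted p = 8.24e-06). Under MG132 its log2 fold change was -0.80 ± 0.32 (SE), which missed the threshold at an adjusted p of 0.124. The log2 ratio of EIF4EBP2 to EIF4EBP1 averaged 2.82 ± 0.17 in siJMJD6 heat shock and 0.18 ± 0.15 in siNT heat shock cells (SD, n = 3 each), a difference of 2.64 with an exact permutation p of 0.1, the smallest possible. It averaged 1.97 ± 0.41 in siJMJD6 MG132 and -0.70 ± 0.73 in siNT MG132 cells (SD, n = 2 each), a difference of 2.67 with an exact permutation p of 0.333, again the smallest possible. EIF4EBP1 thus held the larger share of the pair only in control cells under MG132, among the 4 groups named here.

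The ratio of EIF4EBP2 to EIF4E was added after the values had been seen. Its log2 value averaged 3.61 ± 0.15 in siJMJD6 heat shock and 0.45 ± 0.11 in siNT heat shock cells (SD, n = 3 each). It averaged 3.27 ± 0.31 in siJMJD6 MG132 and 0.25 ± 0.31 in siNT MG132 cells (SD, n = 2 each). Heat shock left this ratio at 0.45 in siNT cells, against 0.45 in siNT basal cells, and siNT MG132 cells stood at 0.25, against 0.26 in siNT DMSO cells. EIF4E2, a cap-binding relative that does not bind eIF4G, fell less than EIF4E after heat shock, by 0.60 ± 0.11 on the log2 scale (SE, limma adjusted p = 5.14e-05). EIF4ENIF1, the eIF4E transporter, was low everywhere and averaged 23.4 in siJMJD6 heat shock and 20.9 in siNT heat shock cells.

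**Figure D3:**
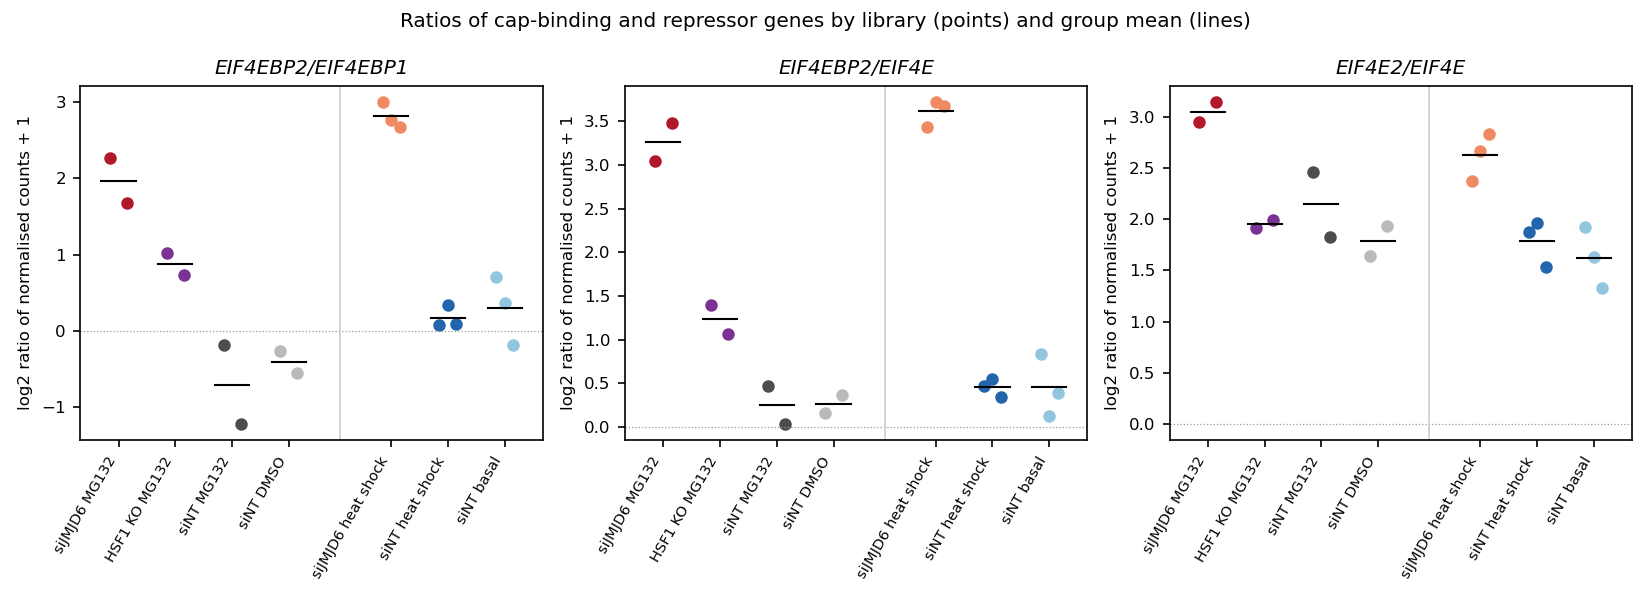
Log2 ratios of normalised counts plus 1 for 3 pairs of cap-binding and repressor genes, with 1 point per library, a line at each group mean, and the MG132 table left of the grey line. In the left and middle panels the JMJD6 knockdown libraries lie above all libraries of the other groups in their table, with means of 1.97 and 2.82 for EIF4EBP2/EIF4EBP1 and of 3.27 and 3.61 for EIF4EBP2/EIF4E.

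The promoter windows of these cap-binding genes are given because they moved most and in opposite directions. They are the 250 bases before and 50 bases after the RefSeq start in GRCh38.p14, at chr10:70403895-70404194 on the plus strand for EIF4EBP2 and chr4:98929084-98929383 on the minus strand for EIF4E. Capitals mark the E-box CACGTG, the letters bound by MYC and MITF/TFE family factors, which occurs 2 times in the EIF4E window and not in that of EIF4EBP2.
EIF4EBP2: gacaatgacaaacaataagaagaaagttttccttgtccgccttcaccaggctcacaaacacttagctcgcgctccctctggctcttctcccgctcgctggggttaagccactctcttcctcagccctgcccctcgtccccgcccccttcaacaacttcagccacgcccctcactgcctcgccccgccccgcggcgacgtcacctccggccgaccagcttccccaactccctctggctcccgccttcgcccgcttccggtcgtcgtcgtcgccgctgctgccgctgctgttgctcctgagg
EIF4E: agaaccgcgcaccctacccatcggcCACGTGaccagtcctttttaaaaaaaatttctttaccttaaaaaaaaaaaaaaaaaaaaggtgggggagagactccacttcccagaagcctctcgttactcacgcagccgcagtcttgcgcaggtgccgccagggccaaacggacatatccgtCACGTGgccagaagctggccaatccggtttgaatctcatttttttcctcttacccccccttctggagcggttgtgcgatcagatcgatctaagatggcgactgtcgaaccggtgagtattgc

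Of the 57 members, 45 had a promoter entry, with 59 entries in all because some genes have several starts. The E-box, which reads the same on both strands, was found in 12 of these 59 windows, or 20.3%, against 7.26% of 35116 windows of the same length. The members holding it included EIF4E, EIF4G1, EIF4B and EIF4H of the cap-binding step, and also EIF4A3, EEF2K, EIF3K and EIF2B3. Of these 8, EIF4A3 and EIF4B rose after JMJD6 knockdown with heat shock, EIF4H was not called, and the other 5 fell. The remaining 4, EIF1B, EIF2AK2, EIF3F and EIF5A2, were not called. Among all genes tested in that comparison 46.4% were called, 21.4% higher and 24.9% lower, and a link of the E-box to these calls was not tested. The heat shock element, alternating GAA and TTC repeats with 2 bases between them, was in none of the 59 windows and in 0.49% of all. The ATF4-C/EBP letters TGATGNAAN were in none of the 59 and in 3.61% of all, with both strands searched for each.

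The cap-binding and helicase factors, counted here with EIF4E and EIF4E2 from above, were called in both directions after heat shock. Of the 9 measured, 3 were higher and 5 lower in siJMJD6 heat shock than in siNT heat shock cells, and 1 was not called, or 88.9% called against 46.4% of all genes. EIF4A2, a helicase of the cap complex, had 218, 303 and 304 normalised counts in siJMJD6 heat shock libraries, against 171, 167 and 206 in siNT heat shock libraries, and rose by 0.59 on the log2 scale (limma adjusted p = 0.000202). EIF4B, which stimulates eIF4A, rose 1.49-fold (limma adjusted p = 0.00105), and EIF4A3, the helicase of the exon junction complex, rose 1.39-fold (limma adjusted p = 7.82e-05). In each of these 3 genes all knockdown libraries lay above all control libraries.

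The scaffolds went the other way after heat shock. EIF4G2, which lacks the eIF4E binding site of its relatives, had 991, 1153 and 1099 normalised counts in siJMJD6 heat shock libraries, against 1478, 1653 and 1641 in siNT heat shock libraries. It fell by 0.56 ± 0.08 on the log2 scale (SE, limma adjusted p = 2.33e-07). The main scaffold EIF4G1 fell by 0.20 ± 0.08 (SE, limma adjusted p = 0.0382), with overlapping groups, and lost the call in 7 of 15 alternatives. EIF4G3 fell by 0.52 ± 0.18 (SE, limma adjusted p = 0.0153) and lost the call in 3. Under MG132, EIF4G2 averaged 1382 in siJMJD6 and 1520 in siNT cells, and its log2 ratio to EIF4G1 was 0.35 higher in siJMJD6 cells, whereas after heat shock it was 0.36 lower. The difference between these stresses was not tested.

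Of the 3 subunits of the eIF2 complex that carries initiator tRNA, 1 was called with JMJD6 knockdown. Over all genes 46.4% were called after heat shock and 13.6% under MG132. EIF2S2, the beta subunit, had 1948, 1814 and 1882 normalised counts in siJMJD6 heat shock libraries, against 2817, 2964 and 2796 in siNT heat shock libraries. Under MG132 it had 1456 and 1298 in siJMJD6 libraries, against 2619 and 2857 in siNT libraries. The groups were separate in both experiments. EIF2S2 fell 1.52-fold after heat shock (log2 -0.60 ± 0.07 SE, limma adjusted p = 9.21e-09) and 1.99-fold under MG132 (log2 -0.99 ± 0.22 SE, limma adjusted p = 0.0117). The MG132 call was lost in 3 of 14 alternatives, with adjusted p of 0.0514 to 0.0691, 2 of them leaving out siNT MG132 replicate 1 or 2. The gene lies at chr20:34088298-34112332 on the minus strand of GRCh38 and has 4 numbered pseudogenes, so its count is subject to the same doubt.

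EIF2S1, the alpha subunit that stress kinases phosphorylate, and EIF2S3, the gamma subunit, were not called in either experiment. EIF2S1 had 153, 184 and 158 normalised counts in siJMJD6 heat shock libraries, against 147, 148 and 106 in siNT heat shock libraries. All knockdown libraries were higher, at a limma adjusted p of 0.0529, and the gene passed the threshold in 8 of 15 alternatives. EIF2S3 averaged 372 in siJMJD6 heat shock and 408 in siNT heat shock cells (limma adjusted p = 0.233).

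EIF2B5, the catalytic epsilon subunit of the exchange factor that recharges eIF2, had 82.5, 59.6 and 89.2 normalised counts in siJMJD6 heat shock libraries, against 117, 117 and 134 in siNT heat shock libraries. In siJMJD6 MG132 libraries it had 103 and 91.9, against 154 and 202 in siNT MG132 libraries. It was lower in every knockdown library. EIF2B5 fell by 0.68 ± 0.15 after heat shock (SE, limma adjusted p = 0.000281) and by 0.85 ± 0.26 under MG132 (SE, limma adjusted p = 0.0472), on the log2 scale, and the second call was lost in 11 of 14 alternatives. Of the 5 eIF2B subunits, 2 fell after heat shock, EIF2B5 and EIF2B3, the second with a call lost in 4 of 15 alternatives, and EIF2B1, EIF2B2 and EIF2B4 were not called. This is 40% called, against 46.4% of all genes.

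Genes listed with the factors for start codon choice and subunit joining were called in both directions after JMJD6 knockdown with heat shock. EIF1AD is on this list, but a role of it in these steps was not examined here. Of the 12 members of the eIF1, eIF2, eIF5 and eIF6 group, 6 fell, 2 rose and 4 were not called, or 66.7% called against 46.4% of all genes. EIF1, which guards start codon selection, had 892, 928 and 950 normalised counts in siJMJD6 heat shock libraries, against 1405, 1363 and 1297 in siNT heat shock libraries, and fell 1.47-fold (limma adjusted p = 1.56e-07). EIF2A, an alternative initiator tRNA factor distinct from eIF2 alpha, had 54.0, 48.0 and 57.8 in siJMJD6 heat shock libraries, against 94.7, 122 and 138 in siNT heat shock libraries, and fell 2.18-fold (limma adjusted p = 1.66e-07). EIF2D, which acts in alternative initiation and ribosome recycling, fell 1.77-fold (limma adjusted p = 3.29e-06), EIF6, which keeps large subunits from joining early, fell 1.39-fold (limma adjusted p = 4.39e-05), and EIF1AX fell 1.18-fold (limma adjusted p = 0.0463), a call lost in 9 of 15 alternatives.

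EIF5B and EIF1AD were the 2 that rose. EIF5B, the GTPase of subunit joining, had 1735, 1542 and 1603 normalised counts in siJMJD6 heat shock libraries, against 1262, 1076 and 1207 in siNT heat shock libraries, and rose 1.38-fold (limma adjusted p = 1.59e-05). EIF1AD had 50.7, 68.8 and 77.5 in siJMJD6 heat shock libraries, against 23.1, 25.1 and 27.6 in siNT heat shock libraries, and rose 2.51-fold (limma adjusted p = 5.67e-06). For both genes the groups were separate. Under MG132 the siJMJD6 libraries of EIF1AD lay far apart, at 14.96 and 76.4, against 42.2 and 24.5 in siNT libraries, and it was not called.

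Heat shock itself raised the mRNA of EIF2AK3, the gene of PERK, an eIF2 alpha kinase that resides in the endoplasmic reticulum. EIF2AK3 had 155, 137 and 133 normalised counts in siNT heat shock libraries, against 78.7, 65.0 and 45.7 in siNT basal libraries. The heated libraries were all higher. EIF2AK3 rose 2.27-fold (log2 1.18 ± 0.16 SE, limma adjusted p = 1.84e-06), and the call was kept in all 15 alternatives. It was not called with JMJD6 knockdown after heat shock, with 116, 133 and 116 in siJMJD6 heat shock libraries (log2 -0.22, with a 95% interval from -0.54 to 0.10). EIF2AK3 was lower in every knockdown library than in every siNT heat shock library, at the closest 132.68 against 132.77. Under MG132 it had 62.8 and 36.8 in siNT MG132 libraries, against 31.4 and 32.2 in siNT DMSO libraries, a log2 fold change of 0.58 ± 0.38 (SE) that was not called (limma adjusted p = 0.921).

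The EIF2AK3 promoter window is printed because this gene had the smallest heat shock p-value of the members. It spans chr2:88627415-88627714 on the minus strand of GRCh38.p14 (RefSeq) and held no match to the 3 motifs searched, so it has no capitals.
EIF2AK3: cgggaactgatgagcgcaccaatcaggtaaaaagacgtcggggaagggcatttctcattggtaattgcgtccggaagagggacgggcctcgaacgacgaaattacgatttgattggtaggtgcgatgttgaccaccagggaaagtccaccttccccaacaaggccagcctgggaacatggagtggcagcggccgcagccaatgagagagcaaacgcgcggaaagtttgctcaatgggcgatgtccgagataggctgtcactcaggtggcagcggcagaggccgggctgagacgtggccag

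The other 3 kinase genes were not called in any of the 6 comparisons. EIF2AK2, the double-stranded RNA-activated kinase PKR, averaged 42.2 in siNT heat shock and 27.1 in siNT basal cells (limma adjusted p = 0.112). EIF2AK1, the haem-regulated kinase HRI, averaged 216 in siNT heat shock and 233 in siNT basal cells, and EIF2AK4, the amino acid-sensing kinase GCN2, averaged 226 in siNT heat shock and 247 in siNT basal cells. The other members that heat shock raised were EIF1, 1.22-fold (limma adjusted p = 0.0177), and EEF1A1, 1.61-fold (limma adjusted p = 0.0474). EIF1 lost the call in 4 of 15 alternatives and EEF1A1 in 9.

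Downstream of eIF2 alpha phosphorylation, ATF4, DDIT3 and TRIB3 fell in JMJD6 knockdown cells in both experiments. A list of 12 genes held eIF2 alpha phosphatases and targets, and also the related genes GCN1, IMPACT, DNAJC3 and NCK1. Of these 12, 4 fell and none rose in siJMJD6 MG132 against siNT MG132 cells, or 33.3% called against 13.6% of all genes. In siJMJD6 heat shock against siNT heat shock cells 7 fell and 2 rose, or 75% against 46.4%. The list was not tested as a set. ATF4 averaged 308 in siJMJD6 MG132 and 1421 in siNT MG132 cells (limma adjusted p = 0.00042), and 260 in siJMJD6 heat shock and 571 in siNT heat shock cells (limma adjusted p = 2.07e-12). DDIT3 and TRIB3 are targets of ATF4. The log2 fold change of DDIT3 was -1.11 under MG132 and -0.9998 after heat shock, and that of TRIB3 was -2.87 and -1.85. PPP1R15A, the stress-induced phosphatase subunit GADD34, fell by 1.65 under MG132 (limma adjusted p = 0.00298) and rose by 0.60 after heat shock (limma adjusted p = 0.00141). The list's median log2 fold changes were -0.63 under MG132 and -0.43 after heat shock. MG132 alone raised PPP1R15A (log2 2.56) and DDIT3 (log2 1.41), 2 of the 12, or 16.7% called against 0.266% of all genes. Heat shock alone raised DDIT3 (log2 0.90) and lowered ATF4 and GCN1, or 25% called against 4.09% of all genes.

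The eIF3 complex, the platform that joins the small subunit to mRNA, had 12 subunit genes measured. After heat shock 2 rose and 5 fell with JMJD6 knockdown, and 5 were not called, or 58.3% called against 46.4% of all genes. EIF3L had 310, 265 and 276 normalised counts in siJMJD6 heat shock libraries, against 450, 476 and 566 in siNT heat shock libraries, and fell 1.75-fold (limma adjusted p = 3.32e-08). EIF3I had 389, 327 and 357 in siJMJD6 heat shock libraries, against 615, 611 and 578 in siNT heat shock libraries, and fell 1.68-fold (limma adjusted p = 6.9e-08). EIF3M, EIF3K and EIF3B fell by 0.59, 0.46 and 0.37 on the log2 scale. EIF3E rose by 0.34 (limma adjusted p = 0.00906) and lost the call without siNT heat shock replicate 2 (adjusted p = 0.0989). EIF3D, EIF3F, EIF3G, EIF3H and EIF3J were not called, with log2 fold changes between -0.16 and 0.32.

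EIF3A, the largest core subunit, was called in opposite directions under the 2 stresses. It had 592, 514 and 521 normalised counts in siJMJD6 heat shock libraries, against 434, 433 and 415 in siNT heat shock libraries. It had 222 and 216 in siJMJD6 MG132 libraries, against 433 and 368 in siNT MG132 libraries. The knockdown libraries were all higher after heat shock and all lower under MG132. The log2 fold changes were 0.34 ± 0.10 after heat shock (SE, limma adjusted p = 0.00397) and -0.86 ± 0.25 under MG132 (SE, limma adjusted p = 0.0411). The second call was lost in 8 of 14 alternatives, and the first in none. EIF3L fell in both experiments, by 0.90 ± 0.27 under MG132 (SE, limma adjusted p = 0.0471), a call lost in 10 of 14 alternatives.

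**Figure D4:**
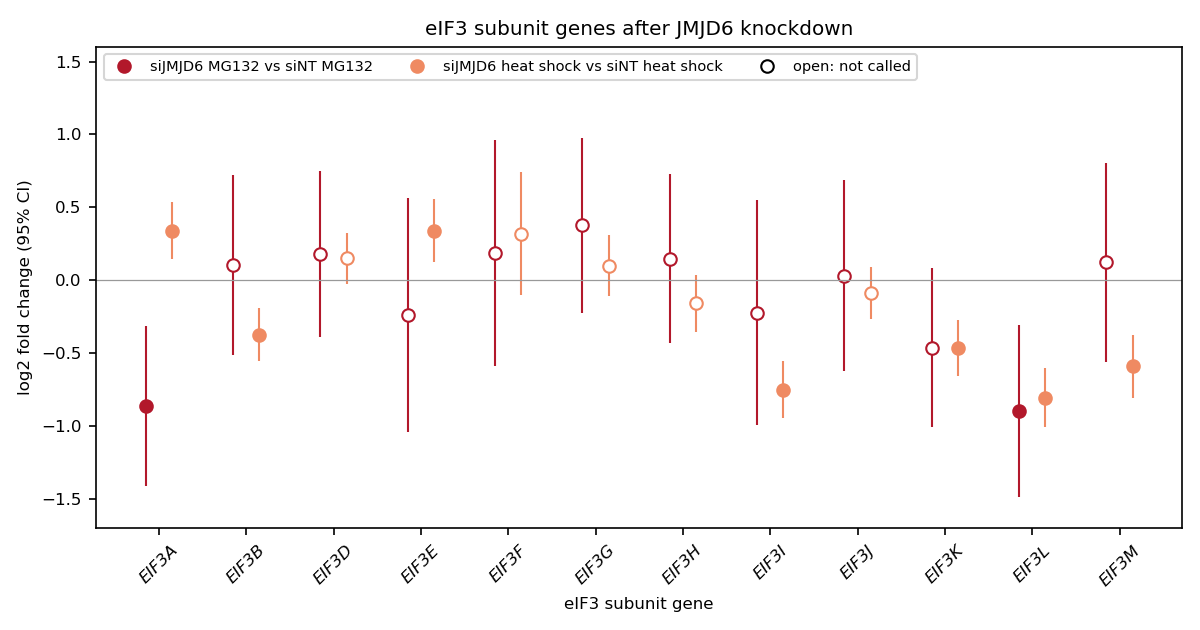
Log2 fold changes of 12 eIF3 subunit genes after JMJD6 knockdown, with 95% confidence intervals, under MG132 (dark red) and after heat shock (orange); filled points were called. EIF3A lies at -0.86 under MG132 and at 0.34 after heat shock, and EIF3L lies below 0 in both.

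Of 9 elongation factor genes measured after heat shock, EEF1B2 rose, EEF2 and EIF5A fell and 6 were not called with JMJD6 knockdown, or 33.3% called against 46.4% of all genes, and none of the 8 tested under MG132 was called. EEF2 had 3121, 2916 and 3031 normalised counts in siJMJD6 heat shock libraries, against 3357, 3479 and 3349 in siNT heat shock libraries, and fell 1.12-fold (limma adjusted p = 0.0319), a call lost in 6 of 15 alternatives. EEF1B2, an exchange factor subunit for eEF1A, rose 1.20-fold (limma adjusted p = 0.0075) and missed the threshold without siNT heat shock replicate 1 (adjusted p = 0.0515). EEF1D and EEF1G, other subunits of that exchange complex, averaged 2279 and 1984 in siJMJD6 heat shock and 2370 and 1898 in siNT heat shock cells, and neither was called. With 1 tag per transcript, EEF2 had the highest mean level of the members in siNT heat shock cells, at 3395.

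EIF5A, the hypusine-containing factor that helps ribosomes past difficult peptide bonds, had 346, 381 and 327 normalised counts in siJMJD6 heat shock libraries, against 508, 442 and 587 in siNT heat shock libraries. It fell 1.45-fold (limma adjusted p = 0.000132). EIF5AL1 is nearly identical in sequence to EIF5A and was listed at 0.95 to 12.8 in the heat shock table, so reads may be split between them. DHPS, the first enzyme of hypusine synthesis, averaged 30.4 in siJMJD6 heat shock and 94.2 in siNT heat shock cells (limma adjusted p = 1.72e-08). It averaged 35.7 in siJMJD6 MG132 and 96.1 in siNT MG132 cells (limma adjusted p = 0.0119). Of 7 hypusine and diphthamide enzymes measured, 1 rose and 1 fell after heat shock, and 1 fell under MG132, or 28.6% called against 46.4% of all genes and 14.3% against 13.6%.

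EEF2K, the kinase that inhibits EEF2, was the member with the second largest fall after heat shock. It had 20.2, 22.5 and 23.5 normalised counts in siJMJD6 heat shock libraries, against 74.5, 63.5 and 40.5 in siNT heat shock libraries. The control libraries were spread widely but all were higher. EEF2K fell 2.55-fold (log2 -1.35 ± 0.21 SE, limma adjusted p = 1.85e-06). Under MG132 it had 25.6 and 30.6 in siJMJD6 libraries, against 43.3 and 38.8 in siNT libraries, and was not called (limma adjusted p = 0.34).

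EEF1A1 was listed at only 4.34 to 99.4 normalised counts, although eEF1A is an abundant protein, and GENCODE release 29 holds 39 numbered pseudogenes of it that could share its reads. Its siJMJD6 MG132 libraries stood at 4.34 and 48.3. EEF1A2, its tissue-restricted paralog, averaged 295 in siJMJD6 heat shock and 312 in siNT heat shock cells and was not called in any comparison.

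The JMJD6 knockdown was compared across the 2 stresses, which share no library. Of 56 members tested in both tables, 33 had the same sign. All 6 members called under MG132 were also called after heat shock, and these are 19.4% of the 31 called there. Over all genes 46.4% were called after heat shock and 13.6% under MG132. The shared calls, shared signs and correlations were not computed over all genes, so they may not be particular to these members. Of the 6, EIF4EBP2 rose in both, EIF4E, EIF2S2, EIF3L and EIF2B5 fell in both, and EIF3A went in opposite directions. Across the 56 members the log2 fold changes had a Pearson r of 0.63 and a Spearman rho of 0.52, given as a description over genes, which are not independent. For the 2 stresses themselves, siNT MG132 over siNT DMSO and siNT heat shock over siNT basal, the same r was 0.07. Several members called after heat shock leaned the same way under MG132 without passing, among them EIF1 (log2 -0.81, limma adjusted p = 0.0699, past the threshold in 3 of 14 alternatives), EIF4EBP1 (log2 -0.80) and EIF2D (log2 -0.75).

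**Figure D5:**
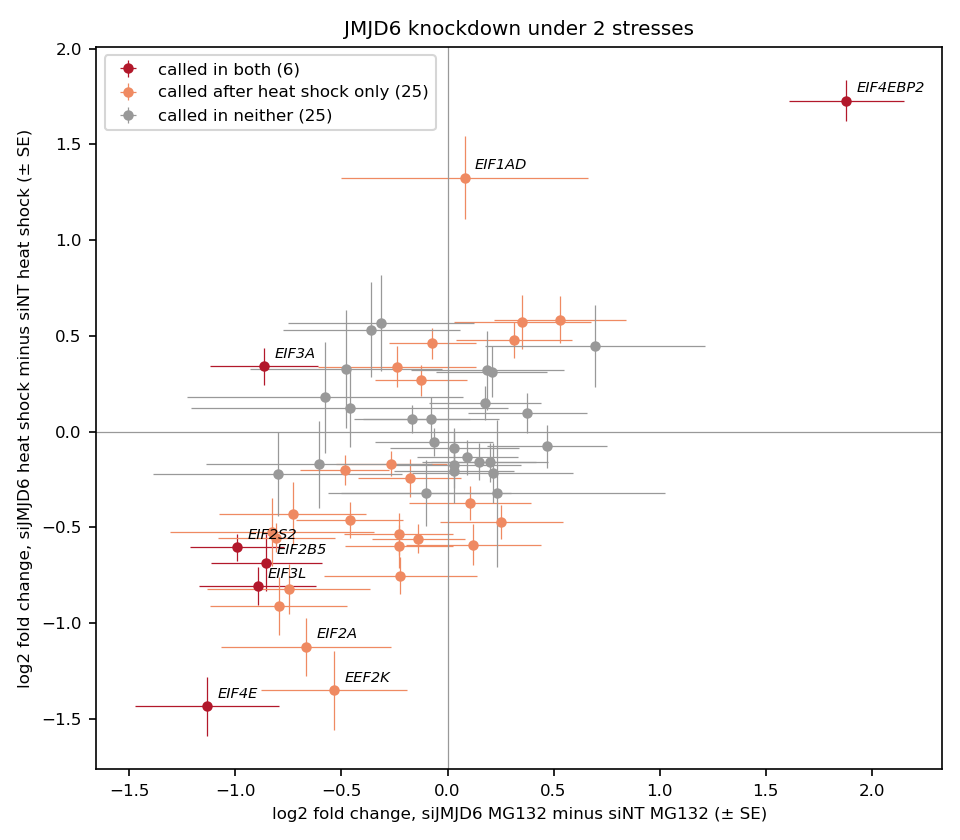
Log2 fold change of each of 56 members, EIF3J-AS1 included, after JMJD6 knockdown under MG132 (horizontal) and after heat shock (vertical), with standard errors as bars. EIF4EBP2 stands alone at the upper right, at 1.88 and 1.73, EIF4E is at the lower left, at -1.13 and -1.43, and EIF3A is called on opposite sides.

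Loss of HSF1 was set against control siRNA under MG132. No member passed the threshold, and the 4 with an unadjusted p under 0.05 were EIF4EBP2, EIF5A2, EIF2B1 and EIF2A. EIF5A2 reached the filter of 10 normalised counts only in the knockout libraries, so its p is no support for a difference. EIF4EBP2 had 173 and 124 normalised counts in HSF1 KO MG132 libraries, against 80.4 and 73.7 in siNT MG132 libraries, and both knockout libraries were higher. Its log2 fold change was 0.92 ± 0.27 (SE, limma adjusted p = 0.146). EIF4E had 65.1 and 58.8 in HSF1 KO MG132 libraries, within the 57.7 to 71.9 of siNT MG132 libraries.

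HSF1 KO MG132 against siJMJD6 MG132 cells shares its libraries with the comparisons above. EIF3L, EIF2S2, EIF2A, EIF2D, EIF3K, EIF4E and EIF2B5 were higher in HSF1 KO MG132 cells, by 0.83 to 1.53 on the log2 scale, and EIF4EBP2 was lower, by 0.96 ± 0.27 (SE, limma adjusted p = 0.0244). EIF2A, for example, had 90.3 and 137 normalised counts in HSF1 KO MG132 libraries, against 25.6 and 55.7 in siJMJD6 MG132 libraries. All 8 calls were lost without HSF1 KO MG132 replicate A, and all 8 without replicate B.

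MG132 against DMSO in siNT cells left the members without a call. EIF2B5 had 154 and 202 normalised counts in siNT MG132 libraries, against 99.8 and 112 in siNT DMSO libraries, the smallest p of the members (log2 0.73 ± 0.26 SE, limma adjusted p = 0.664). EEF1A1, EEF1G and EIF4B were the other members with an unadjusted p under 0.05, at log2 fold changes of -1.73, 0.62 and -0.73. The members' median was 0.09, against -0.005 for all genes. With 2 libraries a group and a median standard error of 0.39, moderate changes may have gone undetected.

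Other genes of the pathway were read from lists of related factors. Of 20 genes of mTORC1 and eIF4E/eIF4B signalling, 2 rose and 2 fell in siJMJD6 MG132 against siNT MG132 cells, and 5 rose and 6 fell in siJMJD6 heat shock against siNT heat shock cells. These are 20% called against 13.6% of all genes under MG132, and 55% against 46.4% after heat shock. DDIT4, an inhibitor of mTORC1 signalling, averaged 89.9 in siJMJD6 MG132 and 3128 in siNT MG132 cells (log2 -5.16, limma adjusted p = 7.73e-07), and 99.3 in siJMJD6 heat shock and 396 in siNT heat shock cells (log2 -1.97, limma adjusted p = 1.07e-16). SESN2, another inhibitor, fell in both (log2 -1.699 and -0.81), and the S6 kinase gene RPS6KB2 and the Rag GTPase gene RRAGA rose in both. MKNK2, a kinase that phosphorylates eIF4E, fell after heat shock (log2 -0.76, limma adjusted p = 1.37e-08).

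Of 18 other initiation factors and poly(A)-binding proteins, 1 rose under MG132, and 3 rose and 6 fell after heat shock, with JMJD6 knockdown. These are 5.56% called against 13.6% of all genes under MG132, and 50% against 46.4% after heat shock. PAIP2B, an inhibitor of poly(A)-binding protein, rose under both stresses (log2 2.23 and 0.75). PABPC4 and PABPC1, which bind poly(A) tails, fell after heat shock by 0.76 and 0.26 on the log2 scale. Of 11 termination and rescue factors, 4 fell after heat shock, or 36.4% against 46.4% of all genes, and ZNF598, the ubiquitin ligase that senses collided ribosomes, fell in both experiments (log2 -1.23 and -0.97). LARP4, which protects poly(A) tails, was the 1 gene of these lists called in HSF1 KO MG132 against siNT MG132 cells (log2 -1.48, limma adjusted p = 0.0246).

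Many mRNAs of the translation machinery begin with a terminal oligopyrimidine (TOP) tract, a C followed by further C or T bases, which mTORC1 reads through LARP1. A start of C and at least 4 further C or T bases within 5 bases of the annotated start was found in 21 of the 59 members' windows, or 35.6%, against 21.1% of all. A tract exactly at the annotated base, counted after the first result was seen, was in 12 of 59, or 20.3%, against 4.07% of all. The starts below, of 25 bases in GRCh38.p14 (RefSeq), are shown because they head members that differed in direction after JMJD6 knockdown with heat shock. EIF4A2, EIF4B and EEF1B2 rose, EIF3M and EEF2 fell, and EEF1A1 was not called. Capitals mark the tract.
EIF4A2: gctgtCTTTTCagtcgggcgctgag
EIF4B: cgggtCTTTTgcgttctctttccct
EEF1B2: cgggtCCTTTTTCCTCTCTTCagcg
EIF3M: gttccCTTTTCCggtcggcgtggtc
EEF2: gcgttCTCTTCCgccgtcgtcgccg
EEF1A1: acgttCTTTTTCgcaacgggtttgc

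These windows lie at chr3:186783572-186783596, chr12:53006451-53006475, chr2:206159890-206159914 and chr11:32583826-32583850 on the plus strand and at chr19:3985444-3985468 and chr6:73521013-73521037 on the minus strand, in the order printed. Of 21 members with such a start, 4 rose and 10 fell in siJMJD6 heat shock against siNT heat shock cells, with a median log2 fold change of -0.20. Of 24 with an entry but no such start, 3 rose and 9 fell, with a median of -0.22. Among all genes tested in that comparison 21.4% rose and 24.9% fell.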

How the data were processed

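RNA of 17 PC3M libraries was sequenced from transcript ends (Lexogen QuantSeq FWD), per the labels' protocols. The submitters' processing notes name FastQC 0.11.2, STAR 2.6.0, HTSeq and build hg38. No source used here gives the annotation, strand setting, filters or scaling method. The deposited values are the authors' normalised counts, a scaled signal per gene in 2 separately normalised tables, so each test stayed within a table. Values sum to 1505826 to 1819640 per library in the MG132 table and 1630644 to 1726645 in the heat shock table. Read depth is unknown, and no counting interval is given.

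Genes with at least 10 normalised counts in at least 2 (MG132) or 3 (heat shock) libraries were kept, which left 9778 and 9831 genes. EIF5AL1 failed this filter in the MG132 table. limma 3.58.1 (R 4.3.3) was fitted to log2(value + 1) with a mean-variance trend and all groups of a table sharing the spread, so fold changes understate those of low genes. p-values were Benjamini-Hochberg adjusted over all genes tested in a comparison. No count model was used, since the values are not counts. Ratios and shares were compared by exact two-sided permutation. The test was checked on simulated data with noise drawn independently for each library. That check does not cover deviations shared between libraries.

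Members named are a fixed panel, up to 15 called members per direction (the 4 smallest p-values where fewer than 4 were called) and paralog pairs. Further members, among them EIF1AX, EIF2B3 and EIF3B, were named after their values were seen. The members and lists were chosen with earlier results of these data known. Alternatives changed the pseudocount, filter, scaling, groups fitted, replicate block and single libraries. Those of shares and ratios were added after seeing the data. EIF4A1, EIF3C, EIF3CL, EIF4E3 and EIF4EBP3 were not analysed here.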

Additional observations from a re-analysis of the deposited data

Results flagged for a closer look

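In 3 members every library moved one way with JMJD6 knockdown under MG132 and every library the other way after heat shock. EIF3A had a log2 fold change of -0.86 in siJMJD6 MG132 over siNT MG132 and of 0.34 in siJMJD6 heat shock over siNT heat shock, both called by limma. EEF1B2 had -0.13 under MG132, which was not called, and 0.27 after heat shock, which was. EIF5B had -0.071 under MG132, not called, and 0.46 after heat shock, called. The difference between the stresses was not tested for any of them, because the tables were normalised separately. Among all genes tested, siJMJD6 and siNT libraries did not overlap for 53.1% under MG132 and for 54% after heat shock.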

How the results depend on the processing

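Of 48 called effects of members, 26 were called under every alternative and none reversed. The count of members called in siJMJD6 MG132 against siNT MG132, 6, dropped to 2 without a filter and to 1 with only those groups fitted, and ranged from 1 to 5 with single libraries left out. It was 3 without either siNT DMSO library or siJMJD6 MG132 replicate 2, 2 without siNT MG132 replicate 2 or either knockout library, and 1 without siNT MG132 replicate 1. EIF4EBP2 kept its call throughout. In HSF1 KO MG132 against siJMJD6 MG132 the count of 8 dropped to 3 without a filter and ranged from 0 to 8, with 0 when either knockout library was left out. In siNT heat shock against siNT basal the count of 3 dropped to 1 under quantile normalisation and ranged from 1 to 3, with 1 without siNT heat shock replicate 2. In siJMJD6 heat shock against siNT heat shock it ranged from 26 to 33. With single libraries left out, the members' median log2 fold change ranged from -0.018 (without siNT MG132 replicate 2) to 0.14 for MG132 over DMSO, from -0.0100 (without siNT MG132 replicate 1) to 0.18 for HSF1 KO over siNT and from 0.080 to 0.33 for HSF1 KO over siJMJD6. Apart from quantile normalisation, which rescales the values, these settings use fewer libraries or, without a filter, test more genes. Other causes were not tested. Alternatives for shares and ratios, chosen after seeing the data, moved 5 values, all of them ratios at a pseudocount of 10.

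In the MG132 table the deviations of same-numbered libraries correlated with r = 0.51 and 0.41 where siNT DMSO was one of the pair, and 0.03 between siJMJD6 MG132 and siNT MG132. In the heat shock table r lay between -0.08 and 0.19. No label used here says what a number marks, and with 2 numbers the MG132 values do not settle the pairing. With a replicate block the members called were 0 for MG132 over DMSO, 7 for siJMJD6 over siNT under MG132, 3 for heat shock over basal, and 32 for siJMJD6 over siNT after heat shock. Under MG132 the block brought EIF1 past the threshold in siJMJD6 over siNT, as did quantile normalisation and leaving out siJMJD6 MG132 replicate 1. No paired analysis was possible because the knockout libraries carry letters, for the 2 comparisons with them.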

Other observations

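EIF5A2, a paralog of EIF5A, was listed at 13.6 and 20.6 normalised counts in HSF1 KO MG132 libraries, against 4.15 and 2.78 in siNT MG132 libraries. It was at 0.74 and 1.86 in siNT DMSO libraries. In the heat shock table it lay between 6.4009 and 14.5. Its log2 fold change in HSF1 KO MG132 over siNT MG132 was 2.01 ± 0.79 (SE, limma adjusted p = 0.3). EIF5A2 passed the filter in the MG132 table only through the knockout libraries, so this value is a description and no support for a difference. EIF2B1, the alpha subunit of eIF2B, had 28.9 and 25.8 in HSF1 KO MG132 libraries, against 8.28 and 14.1 in siNT MG132 libraries (log2 1.26 ± 0.52 SE, limma adjusted p = 0.322). Its values of 15.6 and 27.4 in siNT DMSO and of 11.8 and 27.9 in siJMJD6 MG132 libraries overlapped those of the knockout. The antisense row EIF3J-AS1 was not called in any comparison, and the strand setting of the counting was not given, so its reads cannot be told from those of its partner EIF3J.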
